A study of Mus musculus with 10 samples.

Results

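The glutathione peroxidases of the mouse are the 8 genes Gpx1 to Gpx8, taken here by gene name. The rule uses no measured value, but the family was picked with earlier results of these data known. All 8 are among the 24421 genes of the authors' deposited table, and all 8 are among the 16050 genes it tests. The study sequenced poly(A) RNA of whole olfactory epithelium, the sensory lining of the nose, from untreated mice of the C57BL/6 background at 6 months of age. There were 4 libraries of genotype Apoe3 and 6 of genotype Apoe4. The series names these as human alleles of Apoe, whose product, apolipoprotein E, carries lipids. The sources used here do not give the sex of the animals or how the alleles were introduced. The comparison addresses how these alleles affect the epithelium, as the title puts it. Nothing in the labels ties a library to a litter or batch, so p-values measure the spread between these libraries only.

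The classical glutathione peroxidases reduce hydrogen peroxide and organic hydroperoxides with electrons from glutathione, a small thiol that glutathione reductase then recycles. They do this with selenocysteine, the selenium form of cysteine. The ribosome inserts it at a UGA codon that would otherwise end the protein. Other members of the family carry an ordinary cysteine at that place. In the olfactory epithelium these enzymes act in a tissue that is open to inhaled air and rich in detoxifying enzymes, and Gpx6 is known for its expression there.

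The codon at the active site divides the family into groups of equal size, and its surroundings are shown because the values below are also described by that division. The coding sequences were read from GENCODE M21 transcripts (GRCm38), each 5′ to 3′ as the active-site codon in capitals with the 15 bases before it and the 12 after it. Gpx1 to Gpx4 have 1 in-frame TGA codon each, and Gpx5 to Gpx8 have none. In these latter the codon shown is the TGT or TGC codon whose 27 flanking bases share the most letters with Gpx1.
Gpx1, chr9:108339436-108339465 (+): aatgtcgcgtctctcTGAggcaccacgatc
Gpx2, chr12:76795244-76795273 (-): aatgtggcgtcactcTGAggaacaactacc
Gpx3, chr11:54907241-54907270 (+): aacgtagccagctacTGAggtctgacagac
Gpx4, chr10:80054722-80054751 (+): aacgtggcctcgcaaTGAggcaaaactgac
Gpx5, chr13:21291324-21291353 (-): aatgtggctacctatTGCggtctgacaatc
Gpx6, chr13:21313762-21313791 (+): aacgtggcatccttcTGTggcctgacagct
Gpx7, chr4:108403418-108403447 (-): aacgtagctagcgaaTGTggcttcacagac
Gpx8, chr13:113045649-113045678 (-): aacgtggctagtgacTGCcgcttcacagac
All 8 windows lie within a single exon. The codon is number 47 of 201 in Gpx1, 40 of 190 in Gpx2, 73 of 226 in Gpx3 and 129 of 253 in the longest Gpx4 transcript. TGA is read here as selenocysteine, and TGT and TGC code for cysteine. The cysteine codon is number 73 of 221 in both Gpx5 and Gpx6, 56 of 186 in Gpx7 and 79 of 209 in Gpx8. Of the 27 flanking bases, Gpx2 shares 21 with Gpx1, Gpx4 shares 16, and the other 5 genes share 12 to 15. Gpx5 and Gpx6, neighbours on chromosome 13 among protein-coding genes, with the pseudogene Gm11270 between them, have coding sequences that are 71.0% identical over 663 aligned bases.

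Values per library were not used here, since the authors' deposited table gives 1 mean over all 10 libraries and 1 comparison per gene, so the spread between animals is seen only through the standard errors. Depth was about 14900000 to 20100000 assigned reads per library. The tissue label was checked on the 9 markers of mature olfactory neurons, such as Omp, which all had mean normalized counts of at least 4260. Each of the 4 tested genes on the Y chromosome was lower in Apoe4 by the authors' deposited table, and differences of allele and of sex cannot be told apart in the genes below. For the mouse Apoe gene the authors' deposited table listed a log2 fold change of -0.16 (standard error, SE, 0.10; adjusted p = 0.579), which need not measure transcripts of a human allele.

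Gpx6 was by far the most abundant glutathione peroxidase transcript of the epithelium. Its mean normalized count of 44804 ranked 15 among the 16050 genes tested and made up 72.1% of the family's sum of 62158. Per kilobase of the longest transcript, which allows levels to be compared between genes, Gpx6 stood at 33436 normalized counts. Gpx4, the enzyme that reduces lipid hydroperoxides within membranes, followed at 8218 per kilobase, a level 4.07-fold below that of Gpx6. Gpx3, a secreted enzyme known from blood plasma, stood at 3613 per kilobase and Gpx1, the widespread cytosolic and mitochondrial enzyme, at 2461.

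The remaining members stood far below Gpx1, although Gpx2 and Gpx8 ranked 8528 and 9215 by mean among the 16050 genes tested. Gpx8, a membrane protein of the endoplasmic reticulum, had a level of 297 per kilobase. Gpx2, an enzyme of epithelia best known from the gut, had 118 per kilobase of its longest transcript, which is a retained intron form of 3165 bases, and 350 per kilobase of its protein-coding transcript of 1067 bases. Gpx7, another enzyme of the endoplasmic reticulum, had 43.1 per kilobase. Gpx5, known from the epididymis, was lowest at 24.1 per kilobase, 1390-fold below Gpx6. The order of the levels was the same with the shortest protein-coding transcript and with the union of exons, and with the longest protein-coding transcript only Gpx8 and Gpx2 changed places. Whether neighbours in this order differ beyond the spread between animals was not tested, because no value per library was at hand.

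**Figure D1:**
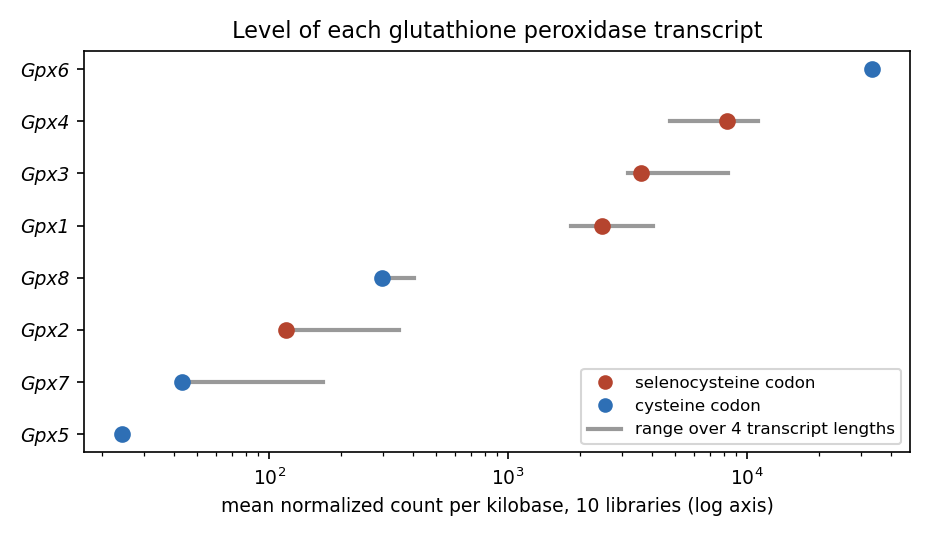
Mean normalized count per kilobase of the longest transcript for each glutathione peroxidase over all 10 libraries, on a log axis, with a grey line for the range over 4 definitions of transcript length. Gpx6 stands at 33436, above Gpx4 at 8218, and Gpx5 is lowest at 24.1.

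Gpx4 and Gpx1 fell in Apoe4 relative to Apoe3, and the other 6 members did not pass the test. A share of 2 of 8 members, or 25.0%, was thus lower at an adjusted p under 0.05, and none was higher. Among all genes tested, 0.779% passed in either direction, with 0.455% lower and 0.324% higher. The median log2 fold change of the 8 members was -0.12, against 0.003 over all genes tested, and 6 of the 8 had negative values, against 48.9% of all genes. The members are few, and these shares describe them without a test of the family. Most members have short transcripts, and genes with short transcripts had lower values. The median was -0.08 for genes of 67 to 1416 bases, which include Gpx1, Gpx4, Gpx6, Gpx7 and Gpx8. It was -0.06 for genes of 1417 to 1950 bases (Gpx3 and Gpx5) and -0.0 for genes of 2878 to 3341 bases (Gpx2). The median of the family was not tested against genes of like length.

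Gpx4 (chromosome 10, 80047166 to 80056439) had a mean normalized count of 8177. The authors' deposited table listed it at a log2 fold change of -0.35 (SE 0.09; adjusted p = 0.0236). On the linear scale this is a change of -21.7%, with a 95% interval from -31.0% to -11.1%. Because deposited folds are shrunken, an approximate unshrunken value was derived, which was -0.48 (SE 0.13) on the log2 scale. Gpx4 ranked 102 by p among the genes tested, of which 125 passed.

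Gpx1 (chromosome 9, 108338903 to 108340343) had a mean normalized count of 2638. Its log2 fold change by the authors' deposited table was -0.34 (SE 0.09; adjusted p = 0.0351). The linear change was -20.8%, with a 95% interval from -30.0% to -10.3%, almost the size of that of Gpx4. The approximate unshrunken value was -0.45 (SE 0.12) on the log2 scale. Gpx1 ranked 114 by p, so both genes lay near the edge of the called set.

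The other members with a selenocysteine codon had negative values that did not pass. For Gpx2 (chromosome 12, 76792333 to 76795554), with a mean normalized count of 374, the authors' deposited table listed a log2 fold change of -0.19 (SE 0.10; adjusted p = 0.502). Its 95% interval ran from -0.39 to 0.01, and from -0.59 to 0.01 with the shrinkage undone. Gpx3 (chromosome 11, 54902453 to 54910377), with a mean of 5760, was listed at -0.13 (SE 0.09; adjusted p = 0.668) by the authors' deposited table. Its 95% interval ran from -0.30 to 0.05.

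Among the members with a cysteine codon, the abundant Gpx6 (chromosome 13, 21312125 to 21319624) was listed at 0.09 (SE 0.09; adjusted p = 0.804) by the authors' deposited table. Its 95% interval, from -0.10 to 0.27, lay wholly above those of Gpx4, at -0.53 to -0.17, and Gpx1, at -0.52 to -0.16. The difference between these genes was not tested, since their errors share the same libraries. Gpx8 (chromosome 13, 113042753 to 113046410), with a mean of 310, was listed by the authors' deposited table at -0.01 (adjusted p = 0.986), with an interval of -0.19 to 0.17. Gpx7 (chromosome 4, 108400390 to 108406961) was listed at 0.04 by the authors' deposited table (adjusted p = 0.929), with an interval of -0.17 to 0.25. For Gpx5 (chromosome 13, 21286429 to 21292731) the authors' deposited table listed -0.11 (adjusted p = 0.754), with an interval of -0.31 to 0.09. Gpx7 and Gpx5 had means of only 55.6 and 40.4 normalized counts, and their standard errors lay near the ceiling of 0.105 that the shrinkage sets. Their folds were not unshrunk, because this was done only for members with a mean of at least 100.

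**Figure D2:**
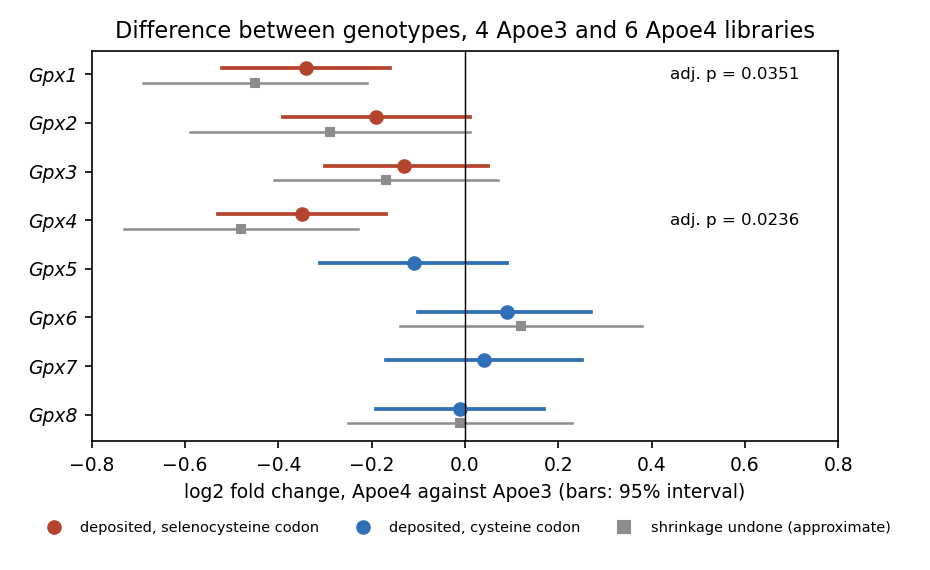
Log2 fold change of each member, Apoe4 against Apoe3, from 4 and 6 libraries, as deposited (circles) and with the shrinkage undone for members with a mean of at least 100 (grey squares); bars are 95% intervals. The deposited intervals of Gpx1 and Gpx4 lie below 0 and those of the other 6 members include 0.

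Read by active site, the deposited values of the 4 selenocysteine members ran from -0.35 to -0.13 and those of the 4 cysteine members from -0.11 to 0.09. Their medians were -0.26 and 0.02. The deposited values did not overlap, but the lowest cysteine member, Gpx5 at -0.11, and the highest selenocysteine member, Gpx3 at -0.13, were almost level. Their 95% intervals, -0.31 to 0.09 and -0.30 to 0.05, covered nearly the same range. Shrinkage differs between genes and no unshrunken value was derived for Gpx5, so whether the groups stay apart without shrinkage was not tested. This division follows the codon and not the data, but it was chosen after the values had been seen and carries no test. The groups also differ in level: the cysteine members sum to 45210 normalized counts, nearly all from Gpx6, and the selenocysteine members to 16948.

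Transcript length moved with the result. Across all genes, shorter transcripts had lower test statistics in Apoe4, and in the lowest of 10 length bins, 1596 genes with transcripts of 67 to 1416 bases, the median log2 fold change was -0.08. In that bin 18 genes were lower and 3 higher at an adjusted p under 0.05, so 1.13% were lower. Gpx4, with 995 bases, and Gpx1, with 1072, belong to it. So do Gpx8 with 1042 bases, Gpx7 with 1289 and Gpx6 with 1340, which had fold changes of -0.01, 0.04 and 0.09. Members of like length stood on both sides of the median of their bin, and the differences between them were not tested.

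With the length trend subtracted from every gene's Wald statistic, the fold divided by its error, Gpx4 moved from -3.79 to -2.91 and Gpx1 from -3.66 to -2.79. Neither then passed, at adjusted p of 0.227 and 0.284. Gpx6 moved upwards by a like step, from 0.92 to 1.71, and did not pass (adjusted p = 0.764). The 4 selenocysteine members then ran from -2.91 to -0.68 and the 4 cysteine members from -0.42 to 1.71. With the trend fitted separately to genes above and below the median mean count, the groups overlapped, at -2.39 to -0.27 and -0.68 to 2.17. The calls of Gpx4 and Gpx1 were also lost with a trend in GC content removed, by a narrow margin, at adjusted p of 0.0563 and 0.0618. The part of length or GC content in the deposited folds was not tested beyond these values.

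**Figure D3:**
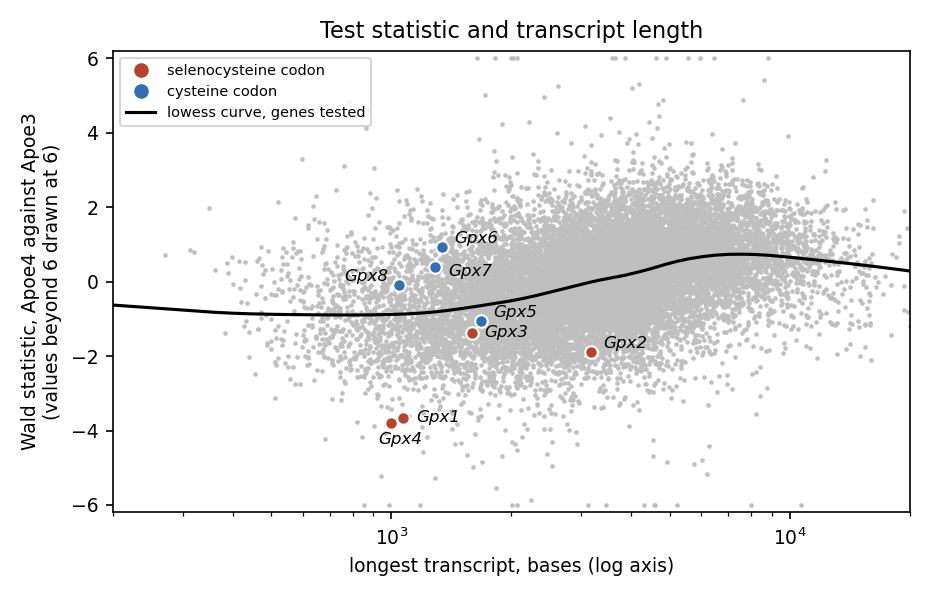
Wald statistic of Apoe4 against Apoe3 and longest transcript (log axis) of each gene tested, with the lowess curve in black and the 8 members in colour. Gpx4 at -3.79 and Gpx1 at -3.66 lie below the curve, and Gpx6, Gpx7 and Gpx8, of similar length, lie above it.

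**Figure D4:**
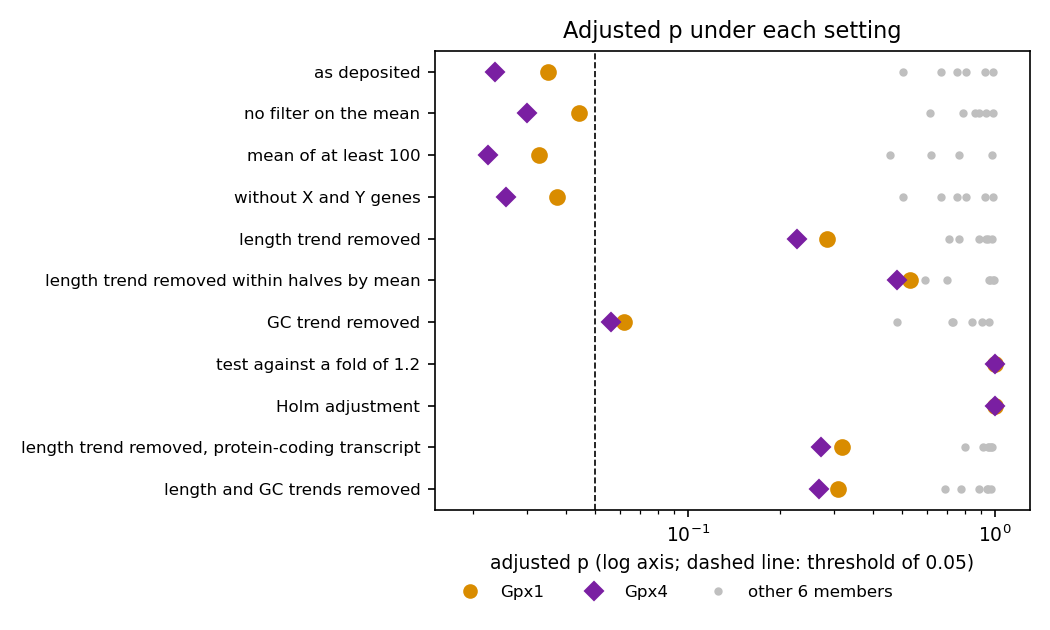
Adjusted p of each member under each setting, on a log axis, with Gpx1 and Gpx4 in colour and the other 6 members in grey; the dashed line is the threshold of 0.05. Gpx4 and Gpx1 pass as deposited and with 3 other sets of genes in the adjustment, and miss the threshold in the other 7 settings.

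Genes that make and recycle glutathione had values close to 0. None of the 19 tested of 20 passed the authors' DESeq2 test, none had an unadjusted p under 0.05, and their median log2 fold change was -0.005. Over all genes tested, 10.3% had an unadjusted p under 0.05. The values of the list ran from -0.16 to 0.07. Gclc and Gclm, the subunits of the enzyme that limits glutathione synthesis, were listed by the authors' deposited table at 0.01 (adjusted p = 0.964) and -0.03 (adjusted p = 0.881). Gsr, the reductase that returns glutathione to its reduced form, was at -0.05 (adjusted p = 0.853) by the authors' deposited table. By the authors' deposited table the smallest p belonged to Ggt7 at -0.10, Chac2 at -0.14, Glrx5 at -0.16 and Chac1 at -0.14 (adjusted p between 0.562 and 0.670).

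Other selenoproteins, which need the same reading of UGA as Gpx1 to Gpx4, had a median of -0.06 on the log2 fold scale over 19 genes tested of 20. Their median transcript has 2177 bases, in a length bin where the median over all genes was -0.04. Of the 19, 13 had negative values and 2 an unadjusted p under 0.05, and none passed the authors' DESeq2 test. The nearest was Vimp (Selenos), a protein of the endoplasmic reticulum membrane, listed by the authors' deposited table at -0.20 (adjusted p = 0.0841). Its longest transcript is short, at 1191 bases, and with the length trend removed it was further from passing (adjusted p = 0.417). The same authors' deposited table listed Selm (Selenom) at -0.22 (adjusted p = 0.380) and Txnrd2, the mitochondrial thioredoxin reductase, at -0.18 (adjusted p = 0.487). Sep15 (Selenof) was at -0.13 (adjusted p = 0.533) by the authors' deposited table, and Selt (Selenot), with a mean of 10580, at 0.03 (adjusted p = 0.903).

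The genes that make and insert selenocysteine had a median of -0.067 over 11 tested, with 8 negative, 2 at an unadjusted p under 0.05 and none past the DESeq2 threshold. Trnau1ap, which binds the selenocysteine tRNA, and Pstk, the kinase that prepares its aminoacyl group, were each listed at -0.26 by the authors' deposited table (adjusted p = 0.277 for Trnau1ap and 0.299 for Pstk). Lrp2, an endocytic receptor for selenoprotein P, was listed by the authors' deposited table at -0.15 (adjusted p = 0.543) and Eefsec, the elongation factor for selenocysteine, at -0.10 (adjusted p = 0.707).

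Enzymes that remove peroxide and superoxide by other means had mostly negative values without any gene passing the authors' DESeq2 test. Of 13 tested, 12 had negative values, 3 had an unadjusted p under 0.05, and the median was -0.093. The median transcript of these 13 genes has 2294 bases, and the bin of all genes that holds this length had a median log2 fold change of -0.04. Those with the smallest p in the authors' deposited table were the peroxiredoxin Prdx1 at -0.20 (adjusted p = 0.157) and the mitochondrial thioredoxin Txn2 at -0.20 (adjusted p = 0.305). Next in the authors' deposited table were Prdx4, a peroxiredoxin of the endoplasmic reticulum, at -0.20 (adjusted p = 0.452) and Sod1, the cytosolic superoxide dismutase, at -0.15 (adjusted p = 0.526). Catalase (Cat) was listed by the authors' deposited table at -0.02 (adjusted p = 0.963).

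Lipid peroxidation and the iron that feeds it are the setting in which Gpx4 is best known, since loss of Gpx4 allows ferroptosis, a death by membrane lipid peroxides. Of 15 genes tested on that list, 1 fell and none rose, 3 had an unadjusted p under 0.05, and the median was -0.044. The gene that fell was Ftl1, the ferritin light chain that stores iron, listed by the authors' deposited table at -0.27 (SE 0.07; adjusted p = 0.0201). Its longest transcript is as short as that of Gpx4, at 968 bases, and with the length trend removed it did not pass (adjusted p = 0.204). For Fth1, the ferritin heavy chain, the authors' deposited table listed -0.18 (adjusted p = 0.309), for Acsl4, which activates polyunsaturated fatty acids, 0.19 (adjusted p = 0.388), and for Slc40a1, the iron exporter, -0.14 (adjusted p = 0.656).

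**Figure D5:**
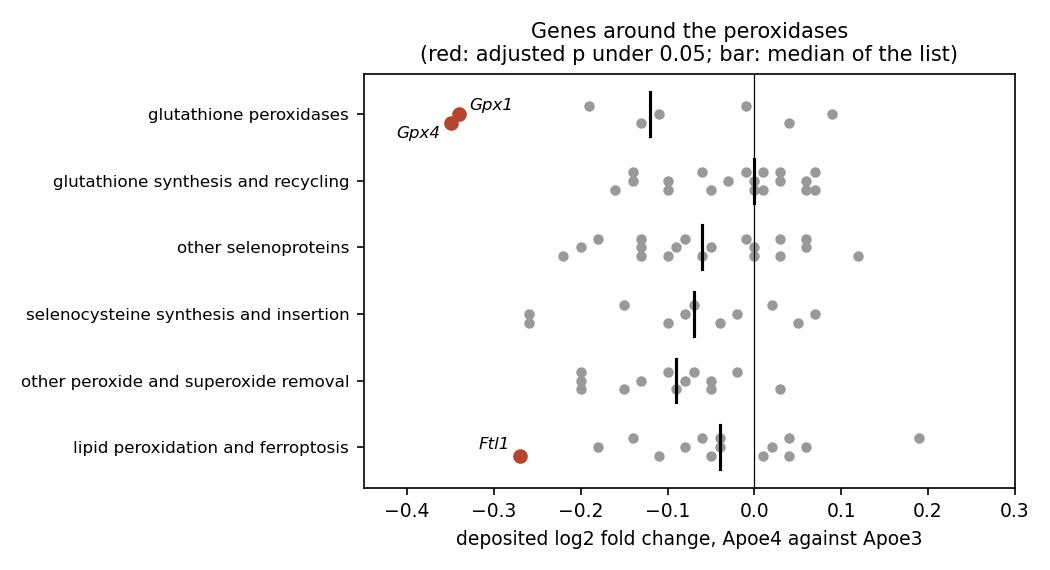
Deposited log2 fold change, Apoe4 against Apoe3, of the 8 glutathione peroxidases and of each tested gene on 5 related lists, with genes at an adjusted p under 0.05 in red and the list's median as a black bar. Gpx4 and Gpx1 lie at the left, Ftl1 is the only other gene past the threshold, and the glutathione list is centred near 0.

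Some markers of cell types also differed between the genotypes, in either direction, and most did not pass the test. All 4 erythroid markers tested of 8 were lower in Apoe4, with a median log2 fold change of -0.256, and red cells are known to hold much Gpx1. Their summed mean was 294 normalized counts over all libraries, and the 4 haemoglobin genes of the list (Hba-a1, Hba-a2, Hbb-bs and Hbb-bt) were listed at 0. A listed 0 need not mean that haemoglobin RNA was absent, since the handling of multiply mapped reads is not given. The sum of 294 is therefore no measure of the red cell RNA in the tissue. Of 10 sustentacular cell markers, the supporting cells of the epithelium, 2 were lower, Aldh1a7 and Cbr2, listed by the authors' deposited table at -0.27 (adjusted p = 0.00172) and -0.26 (adjusted p = 0.0421), and 9 had negative values. The 9 mature neuron markers had a median of -0.042 with none past the threshold and 1 at an unadjusted p under 0.05 in the authors' DESeq2 test. Bowman and nasal gland markers had a median of 0.016 over 7 genes with 1 higher, Bpifb4. In such whole tissue, fewer cells of a type and less RNA per cell cannot be told apart, and the part of these cells in the values of Gpx1 and Gpx4 was not tested.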

How the data were processed

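The submitters' processing notes name STAR, featureCounts, DESeq2 and the build GRCm38; the sources used here give no versions, annotation, strand or handling of multiply mapped reads. Libraries were paired-end reads of 150 bases, per the labels' protocols. The authors deposited, per gene, a mean signal over 10 libraries (normalized counts), log2 fold changes with log2 standard errors, the Wald statistic (a score), p-values and adjusted p-values. No value per library was used here. The deposited p-values equal the two-sided normal p of the score within 2.8e-15, and the adjusted ones Benjamini-Hochberg values over 16050 genes within 1.5e-14. All calls are the authors' DESeq2 calls at an adjusted p under 0.05; the planned count test needed values per library.

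Genes with a single read in 1 library took 10 levels of mean, 6 with positive and 4 with negative folds, so positive folds are higher in Apoe4, the group of 6; depths come from the same levels. Intervals (95%) are the fold plus or minus the normal quantile times its error, and cover no uncertainty of the model. Shrinkage was undone from each error and the ceiling of 0.105 for members with a mean of at least 100. Trends were lowess curves (fraction 0.3; statsmodels 0.14.6, Python 3.11.15) of the Wald statistic on log2 length or on GC content of the longest GENCODE M21 transcript, found for 99.4% of tested genes; the steps were tested on simulated data. Members and lists were chosen with earlier results of these data known. Named were all members, list genes past the threshold, otherwise up to 4 per list with the smallest p, and neighbouring genes; Gclc, Gclm, Gsr, Cat and Selt were named after their values were seen. Older symbols were matched through RefSeq synonyms; Selenov, on the list of other selenoproteins, was not matched. Of the marker lists not described in the text, immature neurons had 1 of 6 tested genes higher, and basal cells (8), respiratory ciliated cells (6) and macrophages (7) none called; 0, 0 and 0 of these had an unadjusted p under 0.05.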

Additional observations from a re-analysis of the deposited data

How the results depend on the processing

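As deposited, 2 glutathione peroxidases were called, and Gpx4 and Gpx1 remained called when all 20776 genes with a p were adjusted together (0.0300 and 0.0442, as adjusted p), with genes of a mean of at least 100 alone (0.0224 and 0.0327) and without X and Y genes (0.0256 and 0.0375). The count was 0 with the length trend removed, with that trend removed separately above and below the median mean (adjusted p of 0.481 and 0.530), with the GC trend removed, in the test against a fold of 1.2, with Holm adjustment and, added after seeing the data, with protein-coding transcript lengths or with length and GC trends removed in turn. In the same settings, other than GC alone, the count of called lipid peroxidation genes went from 1 to 0. The other 4 pathway lists had 0 called genes in every setting run. The direction of Gpx4 and Gpx1 was negative in all of these settings. Only the settings with a trend removed could have changed it, since the others keep the deposited Wald statistic. Over all genes, 125 were called as deposited, 51 with Holm adjustment and 20 against a fold of 1.2; for the trend settings the cause of the lost calls was not tested. No paired analysis was possible because the deposited table holds no values per library, and for the same reason leaving out single libraries, other size factors and other count tests were not run. Depth limits Gpx5 and Gpx7, with means of 40.4 and 55.6.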

Other observations

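None of the neighbouring genes named here passed the authors' DESeq2 test. The authors' deposited table listed Sbno2, which lies 552 bases from Gpx4 on the other strand, at 0.07 (adjusted p = 0.757), and Polr2e on the far side at -0.15 (adjusted p = 0.5). Usp4, which lies 7509 bases from Gpx1, was listed at -0.05 (adjusted p = 0.758) by the authors' deposited table. Gpx2 overlaps the span of Fntb, and Gpx8 that of Cdc20b, each on the other strand and with no exon base in common. By the authors' deposited table Fntb was at -0.02 (adjusted p = 0.956) and Cdc20b at 0.09 (adjusted p = 0.749). The protein-coding gene beyond Gpx6, at a distance of 27285 bases, is the odorant receptor gene Olfr1367, whose mean was 0.313 normalized counts against 44804 for Gpx6.

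Members differ enough from each other that reads of 150 bases can tell them apart: the longest run of identical bases between transcripts of any pair was 40, between Gpx3 and Gpx5. Processed pseudogenes are closer. Gpx4-ps2 shares a run of 314 bases with Gpx4, and a further processed pseudogene, AC122253.3, one of 117 bases. Gpx2-ps1 shares a run of 140 bases with Gpx2 and had a mean of 0.734 normalized counts. How the authors counted reads that match Gpx4 and Gpx4-ps2 equally well is not given in the sources used here, so the level and fold of Gpx4 are uncertain to that extent; Gpx4-ps2 was not analysed here.

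Motifs were searched in the 250 bases before the RefSeq start sites of the members (GRCm38.p6, 11 sites, of which 4 belong to Gpx4). The core of the antioxidant response element, TGACNNNGC on either strand, was not found. Of all 32851 promoter windows 10.2% held it, and with so few sites its lack was not tested. The TATAAA motif was likewise not found on either strand, against 12.4% of windows. The CCAAT motif was present before Gpx2, Gpx3, Gpx5, Gpx6 and Gpx4 start sites 1, 2 and 3, against 33.8% of windows. The GGGCGG motif was present before 3 of the 4 Gpx4 start sites and before Gpx3 and Gpx7, against 32.7% of windows. The windows before Gpx4 start sites 2 and 3 overlap and share copies of CCAAT and GGGCGG, so these are not separate matches. A match or its lack describes these letters only.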
